A study of Homo sapiens with 44 samples.

Results

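Chromatin accessibility around 10 interferon-induced antiviral genes (MX1, MX2, BST2, ISG15, RSAD2, CMPK2, IFI6, IFI27, IFI44 and IFI44L) was followed across 11 culture conditions in Ccd18-Co, an established fibroblast line from human colon. The rows were every peak that the deposited ATAC-seq table names for 1 of these genes, together with the peak over the ISG15 start, which the table names AGRN. This gave 133 of the 407383 peaks of the table, and each peak spans 500 bases from its start to its end. All 133 passed the filter on low coverage and were tested.

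ATAC-seq cuts open chromatin with a transposase and sequences the fragments, so that read coverage over a peak measures how accessible that DNA is. There were 44 libraries, 4 for each condition. Cells were kept without serum for 72 h and either left unstimulated or given 1 cytokine for 24 h. Interferon alpha (IFNα), interferon gamma (IFNγ), TNF, TGF-β1, OSM (oncostatin M), IL-6, IL-13, IL-17A and IL-22 were used at 10 ng/ml, and IL-1β at 0.1 ng/ml according to the labels and the methods, although a figure legend of the study gives a lower IL-1β dose. All groups thus share the line and the serum-free period, and no group carries a genetic change. A cell line grown alone holds none of the epithelial or immune neighbors of a gut fibroblast. The labels do not say whether the 4 libraries of a group came from separate cultures, so p-values measure only the spread between these libraries, which may be technical. In a bulk library, a large change in part of the cells and a small change in all of them cannot be told apart.

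Summed coverage per library ran from 148.8 to 823.1 Mb, and the shallow library of this range was IL-6 replicate 4. Levels below are coverage per Mb of the library's own coverage after a composition factor, and 3 reads correspond to between 0.274 and 1.52 on this scale, depending on the library (counting error only). The start sites of the fibroblast genes COL1A1, COL1A2 and VIM had levels of 24.1, 38.7 and 25.7 in unstimulated cells. None of the 9 fibroblast markers was raised or lowered by either interferon in limma, and 1 was higher with IFNα at an unadjusted p under 0.05. Of the markers of other cell types, PTPRC, CD3E, SPI1, CDH1, KRT20 and VIL1 had no peak within 1 kb of their start. The summed level of CD14, the leukocyte marker with a peak, was 3.88 to 5.31 in unstimulated cells, 2.50 to 4.91 with IFNα and 2.27 to 5.25 with IFNγ. For the epithelial marker EPCAM the same ranges were 0.140 to 1.32, 0.873 to 1.60 and 0 to 1.03. The 3 endothelial markers summed to 2.33 to 3.85, 1.42 to 2.99 and 0.957 to 2.77, with none of them called with either interferon in limma and 0 at an unadjusted p under 0.05. The part of these markers in the results was not tested.

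Interferons warn cells of viral infection. Type I interferons such as IFNα signal through the receptor chains IFNAR1 and IFNAR2 and the kinases JAK1 and TYK2 to a complex that holds STAT2 and IRF9 and binds the interferon-stimulated response element (ISRE). IFNγ signals through IFNGR1 and IFNGR2 and JAK1 and JAK2 to the gamma-activated sequence (GAS), and it induces IRF1, which can also bind ISRE-like DNA. MX1 and MX2 are dynamin-like GTPases that block viral nucleocapsids, BST2 (tetherin) holds budding virions at the cell surface, and ISG15 is a ubiquitin-like protein that is conjugated to other proteins. RSAD2 (viperin) makes a chain-terminating nucleotide and lies beside CMPK2, a mitochondrial nucleotide kinase. IFI6 and IFI27 are small membrane proteins, and IFI44 and IFI44L are neighboring paralogs.

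For each gene, the start-site peak was the row whose centre lay nearest to the start of the main GENCODE transcript, within 1 kb. The 10 such peaks had their centres 10 to 189 bases from the start. In hg38 they were chr21:41425999-41426499 (MX1, in its 5′ UTR), chr21:41361661-41362161 (MX2), chr19:17405416-17405916 (BST2), chr1:1013058-1013558 (ISG15), chr2:6877400-6877900 (RSAD2), chr2:6865549-6866049 (CMPK2, in its 5′ UTR), chr1:27672037-27672537 (IFI6, in an intron of the antisense transcript ENSG00000225886), chr14:94110454-94110954 (IFI27), chr1:78649533-78650033 (IFI44) and chr1:78620385-78620885 (IFI44L, in an intron). For MX2, BST2, ISG15, RSAD2, IFI6, IFI27 and IFI44 the centre lay upstream of the start. For 3 of the 10 the table gives another gene's name: besides ISG15, the RSAD2 start peak is named CMPK2 and the CMPK2 start peak is named RSAD2. The RSAD2 record of GENCODE has an alternative start inside the CMPK2 promoter, so the pair overlap on opposite strands and their peaks cannot be assigned to 1 gene each.

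The DNA under these start-site peaks was read from hg38 on the strand of the gene, and the ISRE core GAAANNGAAA was searched on both strands, with overlapping matches counted. A match was present in 6 of the 10 start-site peaks, against 6.64% of promoter-class peaks and 9.13% of all tested peaks. The sequences are shown because their motif content differs between genes that opened with the same cytokine, with capitals marking the ISRE core on either strand.

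ISG15, chr1:1013344-1013496, plus strand: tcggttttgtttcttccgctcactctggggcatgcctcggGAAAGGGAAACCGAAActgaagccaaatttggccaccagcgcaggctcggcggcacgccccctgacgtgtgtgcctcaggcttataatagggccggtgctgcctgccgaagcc
IFI6, chr1:27672236-27672388, minus strand: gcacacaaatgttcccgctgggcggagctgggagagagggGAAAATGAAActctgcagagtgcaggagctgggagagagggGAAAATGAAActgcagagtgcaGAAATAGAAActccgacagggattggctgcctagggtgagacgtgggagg
BST2, chr19:17405738-17405767, minus strand: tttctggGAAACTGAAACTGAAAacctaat
IFI27, chr14:94110588-94110677, plus strand: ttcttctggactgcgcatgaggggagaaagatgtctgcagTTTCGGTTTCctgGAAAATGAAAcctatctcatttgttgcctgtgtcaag
RSAD2, chr2:6877622-6877651, plus strand: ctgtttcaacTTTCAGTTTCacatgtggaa
IFI44, chr1:78649731-78649830, plus strand: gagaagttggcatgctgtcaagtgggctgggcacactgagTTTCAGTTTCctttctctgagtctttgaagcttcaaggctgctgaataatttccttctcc

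ISG15 holds 2 overlapping matches at 113 and 107 bases upstream of its start, and a further match at 315 bases. BST2 likewise holds 2 overlapping matches, at 124 and 130 bases. IFI6 holds 3 matches between 93 and 156 bases upstream. IFI27 holds 1 match on each strand, RSAD2 holds 1 match at 145 bases, and IFI44 holds 1 at 60 bases. The start-site peaks of MX1, MX2, CMPK2 and IFI44L hold no match to these letters. The GAS core TTCNNNGAA, which is a palindrome, was present in the start-site peaks of BST2 and IFI27 only, 2 of 10, against 12.9% of promoter-class peaks.

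IFNα raised the accessibility of all 10 start-site peaks (limma with Benjamini-Hochberg adjustment over 407176 tested peaks, adjusted p under 0.05), with a median log2 change of 2.13. Of the 133 peaks, IFNα raised 38 (28.6%), against 0.513% of all tested peaks, and 0.910% of the promoter class. No member peak was lowered by IFNα in limma, against 0.334% of all tested peaks, and 4 were lower at an unadjusted p under 0.05. IFNγ raised 8 of the 10 start-site peaks, with a median log2 change of 1.51 over the 10. IFNγ raised 15 of the 133 peaks (11.3%), against 1.48% of all tested peaks and 1.71% of the promoter class. No member peak was lowered by IFNγ in limma, against 0.275%, and 3 were lower at an unadjusted p under 0.05. The median log2 change over the 133 peaks was 0.55 with IFNα and 0.24 with IFNγ, where over all tested peaks it was 0.01 and -0.01. Of all peaks called with IFNα, 60.6% were raised, or 49.4% with scaling by library totals alone. Both comparisons use the same 4 unstimulated libraries. In 9 of the 10 start-site peaks, IFI44 being the exception, the 4 IFNα libraries lay above the 4 unstimulated ones, an arrangement found in 2.63% of all tested peaks. With IFNγ this held for all 10, against 3.92%.

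**Figure D1:**
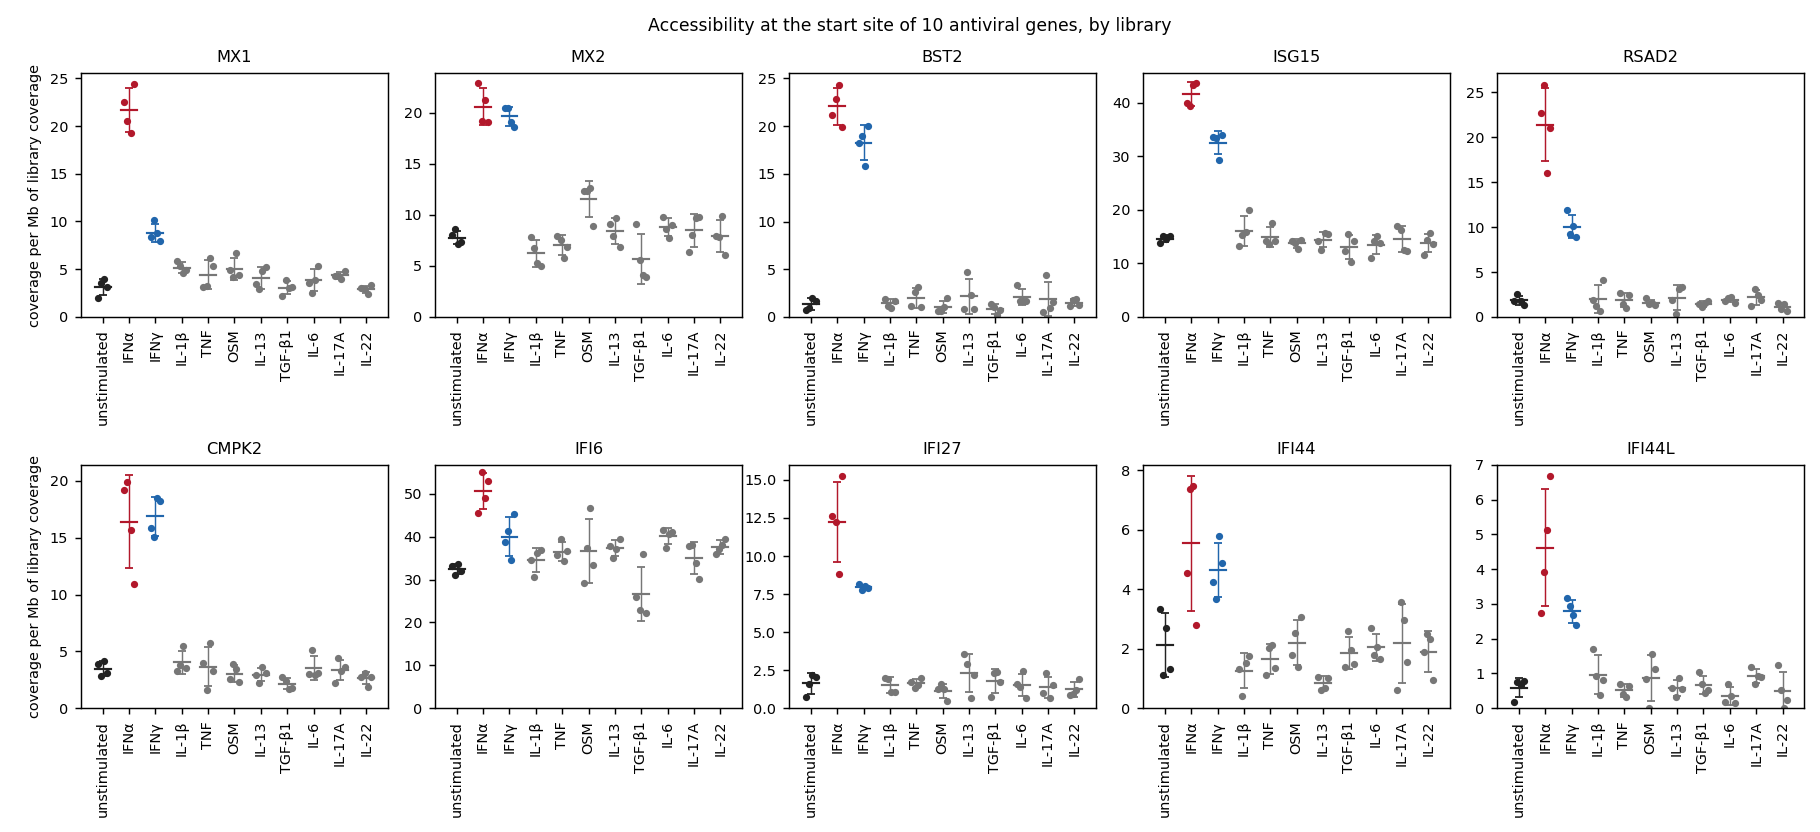
Accessibility of the start-site peak of each of the 10 genes (y axis, coverage per Mb of library coverage, starting at 0) in each of the 11 conditions (x axis). Each point is 1 library, with 4 per condition, the horizontal line is the mean and the bar is 1 SD. The IFNα and IFNγ libraries stand above the other conditions in most panels, and BST2 goes from a mean of 1.34 unstimulated to 22.1 with IFNα.

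BST2 had the greatest change of the 10 start-site peaks with each interferon. Its level was 0.707, 0.926, 2.03 and 1.71 in the 4 unstimulated libraries, 21.2, 22.9, 24.3 and 19.9 with IFNα, and 18.3, 19.0, 15.8 and 20.0 with IFNγ. Every interferon library was thus above every unstimulated library, and the IFNα and IFNγ libraries overlapped. The log2 change was 3.68 ± 0.32 (SE, n = 4 against 4) with IFNα and 3.41 ± 0.32 with IFNγ, with adjusted p-values of 1.24e-20 and 1.17e-18 in limma. The log2 difference between IFNα and IFNγ was 0.27, with a 95% interval (from the standard error of the fit) from -0.35 to 0.89.

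RSAD2 and CMPK2, neighbors in the genome, were both little open at rest and were both raised by each interferon. RSAD2 had levels of 1.76, 2.51, 1.77 and 1.35 unstimulated, 22.7, 25.9, 16.1 and 21.0 with IFNα, and 11.9, 9.29, 10.1 and 8.92 with IFNγ. CMPK2 had 3.93, 2.84, 4.11 and 3.08 unstimulated, 19.2, 19.9, 15.6 and 10.9 with IFNα, and 15.8, 15.0, 18.5 and 18.2 with IFNγ. For RSAD2 the 4 IFNα libraries lay above the 4 IFNγ libraries, whereas for CMPK2 they overlapped. The log2 change of RSAD2 was 3.22 ± 0.31 with IFNα and 2.18 ± 0.31 with IFNγ, and the log2 difference of 1.04 between them missed the threshold (adjusted p = 0.0585 in limma). CMPK2 changed by 2.06 ± 0.25 and 2.13 ± 0.25 on the log2 scale, and the difference of -0.07 had a 95% interval from -0.56 to 0.42. Whether RSAD2 and CMPK2 differ in this was not tested.

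MX1 had the 1 start-site peak called between IFNα and IFNγ. Its level was 1.97, 3.53, 3.94 and 3.13 unstimulated, 22.6, 20.5, 19.2 and 24.4 with IFNα, and 8.40, 10.2, 8.83 and 7.91 with IFNγ. The 3 sets of libraries did not overlap, and IFNγ lay between unstimulated and IFNα. The log2 change was 2.63 ± 0.24 with IFNα and 1.38 ± 0.24 with IFNγ, and the log2 difference between the interferons was 1.25 ± 0.24 (adjusted p = 0.000156 in limma). For the other 9 start-site peaks the difference did not pass the test, which does not show that the interferons act alike there. In 5 of the 10 start-site peaks (MX1, ISG15, RSAD2, IFI6 and IFI27) the IFNα libraries lay wholly above the IFNγ libraries. Across all tested peaks, the IFNα and IFNγ libraries were apart on either side in 5.73%.

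MX2, the paralog beside MX1 on chromosome 21, was more open at rest and reached similar levels with both interferons. Its unstimulated levels of 7.14 to 8.59 went to 19.1 to 22.9 with IFNα and 18.6 to 20.5 with IFNγ. The log2 changes were 1.35 ± 0.19 and 1.29 ± 0.19, and the log2 difference was 0.06, with a 95% interval from -0.30 to 0.43. The mean levels of the MX1 and MX2 start-site peaks were 3.14 ± 0.850 and 7.76 ± 0.657 at rest (SD, n = 4), and 21.7 ± 2.28 and 20.6 ± 1.83 with IFNα.

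ISG15 and IFI6 were the most open of the 10 start-site peaks at rest, and IFI6 had the smallest change of the 10 with IFNα. ISG15 had levels of 13.8, 15.1, 14.5 and 15.1 unstimulated, 40.0, 39.3, 43.3 and 43.7 with IFNα, and 33.5, 33.3, 29.4 and 34.0 with IFNγ. Its log2 change was 1.48 ± 0.14 with IFNα and 1.13 ± 0.14 with IFNγ. IFI6 had 33.1, 31.1, 33.7 and 32.0 unstimulated, 45.5, 55.1, 49.1 and 53.0 with IFNα, and 38.7, 41.3, 34.5 and 45.4 with IFNγ. All interferon libraries were above the unstimulated ones for both genes, although the log2 change of IFI6 was 0.63 ± 0.10 with IFNα (adjusted p = 3.3e-06 in limma) and 0.29 ± 0.10 with IFNγ, which was not called (adjusted p = 0.146).

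IFI27 had levels of 0.707 to 2.2 unstimulated, which went to 8.83 to 15.3 with IFNα and 7.77 to 8.13 with IFNγ. Its log2 changes were 2.62 ± 0.32 and 2.05 ± 0.32. The paralogs IFI44 and IFI44L were the least open of the 10 peaks under IFNα. IFI44L had 0.178 to 0.785 unstimulated, where the floor of 3 reads was 0.426 to 0.683, and it reached 2.75 to 6.68 with IFNα and 2.40 to 3.17 with IFNγ. Its log2 change was 2.21 ± 0.38 with IFNα and 1.63 ± 0.38 with IFNγ, and the call with IFNγ was lost at a pseudocount of 0.1 (adjusted p = 0.0595 in limma). IFI44 had 3.34, 1.13, 2.69 and 1.31 unstimulated, 4.55, 7.38, 7.46 and 2.79 with IFNα, and 4.23, 3.67, 5.79 and 4.89 with IFNγ. One IFNα library of IFI44 lay inside the unstimulated range, and its log2 change of 1.21 ± 0.32 (adjusted p = 0.0320) lost its call in 6 of 16 alternatives, among them leaving out unstimulated replicate 2 or 4 or IFNα replicate 1, 2 or 3 in turn, with an adjusted p of up to 0.207. With IFNγ the log2 change was 1.05 ± 0.32 and was not called (adjusted p = 0.0651 in limma).

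**Figure D2:**
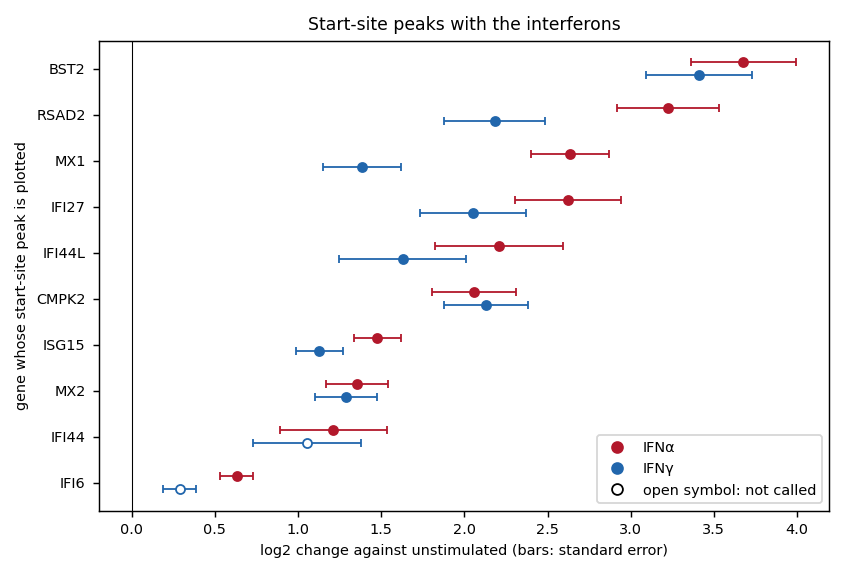
log2 change against unstimulated (x axis) of the start-site peak of each gene (y axis, ordered by the IFNα change), with IFNα in red and IFNγ in blue. Bars are the standard error from the model and open symbols did not pass the test. MX1 and RSAD2 show the widest gaps between the interferons, 1.25 and 1.04, whereas MX2 and CMPK2 nearly coincide.

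None of the other 8 cytokines raised or lowered any of the 10 start-site peaks in the fit of all 44 libraries, while a fit of the compared groups alone called 2 raised by OSM. In these 80 comparisons the log2 changes ran from -0.88 (IFI44 with IL-13) to 0.67 (MX1 with IL-1β) and the lowest adjusted p was 0.0661 in limma. At an unadjusted p under 0.05, 6 were higher and 4 lower. The 36 libraries without an interferon gave a range for each gene: BST2 stayed between 0.228 and 4.73, and RSAD2 between 0.315 and 4.12. MX2 lay between 3.95 and 12.6, its highest group mean among them being OSM at 11.6 ± 1.75. All 4 IFNα libraries exceeded all 36 of these libraries at 8 of the 10 start sites, with 3 of 4 doing so at IFI6 and at IFI44. All 4 IFNγ libraries did so at 9 start sites, and none did at IFI6. The share of all tested peaks with such an arrangement was not computed, so these counts describe the 10 peaks only.

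**Figure D3:**
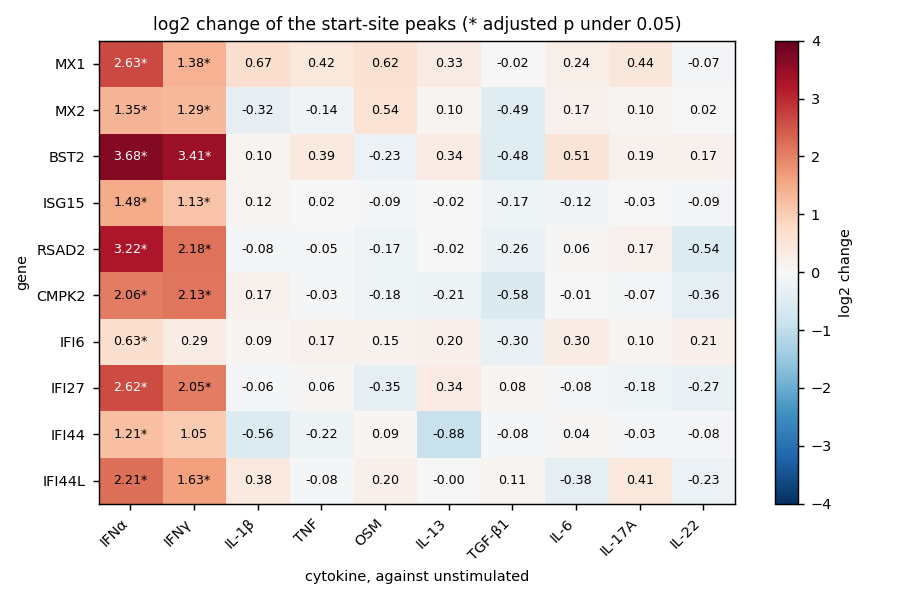
log2 change against unstimulated of the start-site peak of each of the 10 genes (rows) with each of the 10 cytokines (columns), printed in each cell and colored from -4 to 4. Asterisks mark an adjusted p under 0.05. The asterisks fall in the IFNα and IFNγ columns, 10 and 8 of them.

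Away from the start sites, IFNα raised more of the named peaks than IFNγ. Of the 123 other peaks, IFNα raised 28 and IFNγ raised 7, where they raised 0.513% and 1.48% of all tested peaks. Over all 133 peaks, by distance from the nearest start of the 10 genes, IFNα raised 14 of 22 peaks within 1 kb, 10 of 47 at 1 to 10 kb and 14 of 64 beyond 10 kb. IFNγ raised 9, 1 and 5 of the same peaks. Its share at 1 to 10 kb, 2.13%, was near its 1.48% of all tested peaks. The 22 within 1 kb include the 10 start-site peaks, which made up 10 of the 14 rises with IFNα and 8 of the 9 with IFNγ. Tested directly, IFNα exceeded IFNγ at 14 of the 133 peaks, against 0.297% of all tested peaks, and fell below it at 1, against 0.878%. Of those 14, 6 were named for MX1 (its start-site peak among them), 5 for IFI6, 2 for MX2 and 1 for RSAD2. Among them, chr1:27656055-27656555, chr21:41371313-41371813 and chr21:41410623-41411123 were not called with IFNα against unstimulated (adjusted p = 0.698, 0.239 and 0.0535 in limma). At chr1:27656055-27656555 the mean level was 3.34 unstimulated, 4.55 with IFNα and 1.58 with IFNγ. Raised peaks were unevenly spread over the gene names. IFNα raised 10 of 21 peaks named for IFI6, 9 of 15 for MX1, 5 of 8 for BST2, 3 of 14 for MX2 and 3 of 10 for ISG15. It raised 2 of 31 for IFI44L, 1 of 12 for IFI44 and 1 of 14 for IFI27, and of the RSAD2 and CMPK2 names 2 of 5 and 2 of 3.

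**Figure D4:**
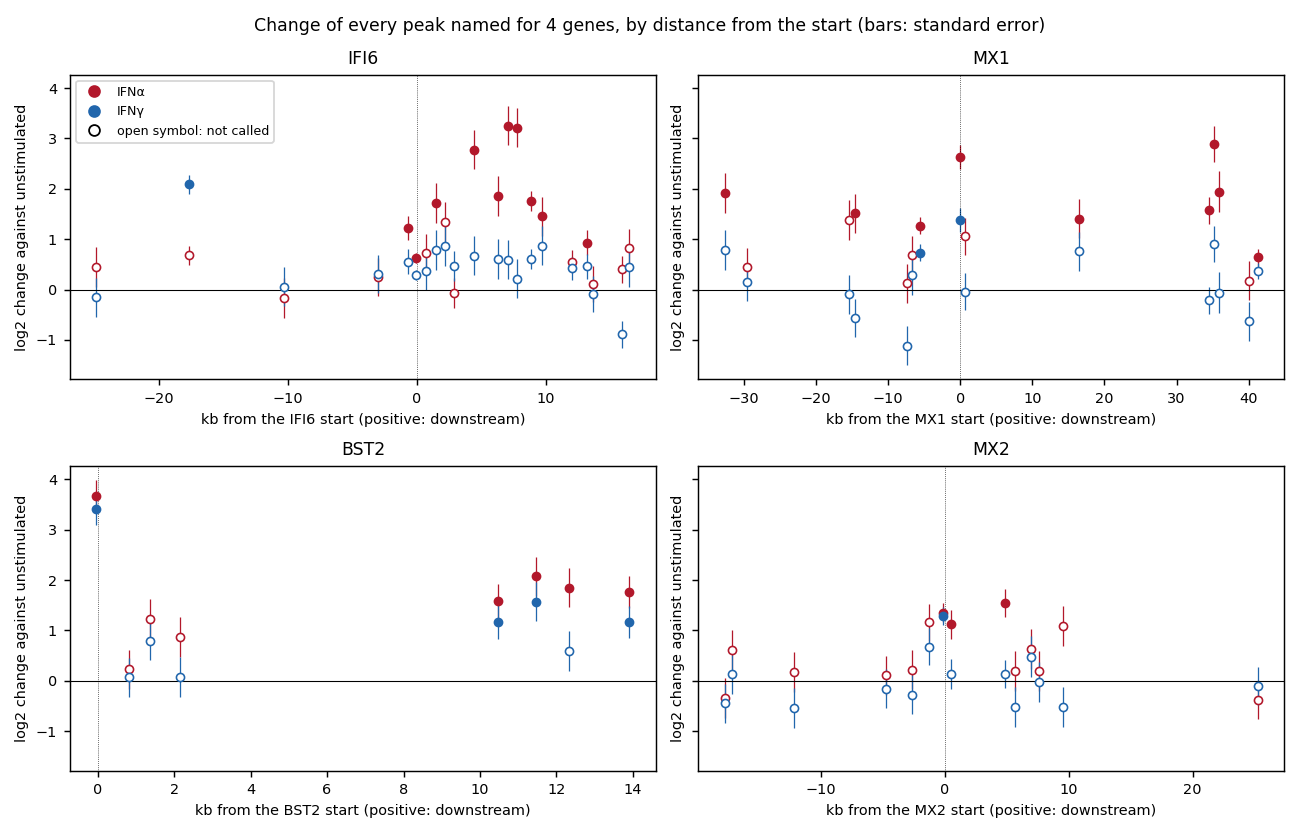
log2 change against unstimulated (y axis) of every peak named for IFI6, MX1, BST2 and MX2, by the distance of its centre from the start of that gene in kb (x axis, positive downstream). IFNα is red, IFNγ is blue, bars are the standard error and open symbols did not pass the test. At IFI6 the IFNα changes reach 3.26 at 7.05 kb downstream, and IFNγ alone is called 17.7 kb upstream.

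Of the 133 peaks, those downstream of IFI6 showed the widest gaps between the interferons. Downstream of the gene body, in the long noncoding RNA gene LINC02574, the peak chr1:27664892-27665392 lay 7.05 kb from the IFI6 start. Its level was 0.360, 0.486, 1.24 and 1.07 unstimulated, 8.50, 13.3, 11.5 and 12.4 with IFNα, and 0.627, 0.918, 1.70 and 2.94 with IFNγ. The IFNα libraries stood far above all others and the IFNγ libraries overlapped the unstimulated ones. The log2 change with IFNα was 3.26 ± 0.39, which exceeded that of the IFI6 start itself, and the log2 difference from IFNγ was 2.66 ± 0.39 (adjusted p = 1.63e-07 in limma). Its neighbor chr1:27664189-27664689 had a log2 change of 3.21 ± 0.38 with IFNα and a log2 difference of 3.00 ± 0.38 from IFNγ (adjusted p = 9.44e-10). A peak in an intron of IFI6, chr1:27667545-27668045, changed by 2.78 ± 0.38 on the log2 scale with IFNα and differed from IFNγ by 2.11 ± 0.38. These 3 peaks hold no ISRE or GAS match, and 2 of them hold the AP-1 core TGANTCA (a palindrome), which is present in 25.7% of all tested peaks.

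At MX1, the peak with the greatest IFNα change was chr21:41461135-41461635, 35.1 kb downstream of the start in an intron of long MX1 transcripts. It went from 0.424 to 1.74 unstimulated to 7.50 to 12.5 with IFNα and 1.51 to 2.88 with IFNγ. The log2 change with IFNα was 2.89 ± 0.35 and the log2 difference from IFNγ was 1.98 ± 0.35 (adjusted p = 3.74e-05 in limma). The 2 adjacent peaks, chr21:41460503-41461003 and chr21:41461938-41462438, changed by 1.57 ± 0.27 and 1.94 ± 0.40 with IFNα and differed from IFNγ by 1.79 ± 0.27 and 2.00 ± 0.40, so that the 3 peaks moved together. At a pseudocount of 0.1 the IFNα call of the last was lost (adjusted p = 0.0927 in limma). Between MX2 and MX1, chr21:41411343-41411843 had levels of 0.863 to 1.67 unstimulated, 3.34 to 5.68 with IFNα and 0.532 to 0.884 with IFNγ. This peak holds 2 ISRE matches and differed between the interferons by 2.08 ± 0.38 on the log2 scale, while its change against unstimulated, 1.52 ± 0.38, lost its call in 5 of 16 alternatives (adjusted p of up to 0.187), among them leaving out unstimulated replicate 1 or 3 or IFNα replicate 1 or 3. A peak named for MX1 in an intron of MX2, chr21:41393338-41393838, changed by 1.92 ± 0.39 with IFNα.

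MX1 also has an annotated upstream start under the peak chr21:41420344-41420844, whose centre lies in a 5′ UTR of that transcript. This peak rose from 7.46 to 11.3 unstimulated to 19.8 to 28.0 with IFNα and 13.0 to 18.1 with IFNγ. Its log2 changes were 1.27 ± 0.17 and 0.73 ± 0.17, and the IFNγ call was lost without unstimulated replicate 3 (adjusted p = 0.0601 in limma). The log2 difference between the interferons was 0.54 ± 0.17 at this upstream start. It was not called (adjusted p = 0.105 in limma), unlike that of the main MX1 start-site peak. It holds the ISRE core that the main MX1 start-site peak lacks, and the downstream peak holds another, shown here with capitals for the core.

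MX1 upstream exon, chr21:41420559-41420588, plus strand: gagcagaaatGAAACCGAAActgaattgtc
MX1 downstream peak, chr21:41461554-41461635, plus strand: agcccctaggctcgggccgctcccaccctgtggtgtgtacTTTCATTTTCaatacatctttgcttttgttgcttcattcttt

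At BST2, the 4 peaks that lie 10.5 to 13.9 kb downstream, at the neighboring gene CCDC194, were all raised by IFNα. Of these, chr19:17393913-17394413 changed by 2.07 ± 0.39 with IFNα and 1.57 ± 0.39 with IFNγ on the log2 scale. The IFNγ call was lost without IFNγ replicate 2 or at a pseudocount of 0.1 (adjusted p of up to 0.0749 in limma), and the IFNα call of the peak at 10.5 kb was lost without unstimulated replicate 3 (adjusted p = 0.0741). The IFNα call of chr19:17393045-17393545 was lost at a pseudocount of 0.1 (adjusted p = 0.139). IFNγ also raised the peaks at 10.5 and 13.9 kb. Those calls were lost in 9 and 6 of 16 alternatives (adjusted p of up to 0.396 and 0.149 in limma). The libraries whose removal ended both were unstimulated replicates 2 and 4 and IFNγ replicates 2, 3 and 4. At none of the 4 peaks was the difference between the interferons called (lowest adjusted p = 0.0915).

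At the RSAD2 and CMPK2 pair, a peak in an intron of CMPK2, chr2:6855755-6856255, changed by 2.41 ± 0.39 with IFNα and differed from IFNγ by 1.99 ± 0.39, a difference not called at a pseudocount of 0.1 (adjusted p = 0.0917 in limma). The peak chr2:6876710-6877210, which the table names CMPK2 and which lies 0.817 kb upstream of the RSAD2 start, holds 1 ISRE match and changed by 1.49 ± 0.39 with IFNα. Its call was lost in 7 of 16 alternatives (adjusted p of up to 0.273), among them without unstimulated replicate 1, 3 or 4 or IFNα replicate 1, 2 or 4. At MX2, chr21:41366624-41367124, 4.85 kb downstream of the start, changed by 1.55 ± 0.28 with IFNα and differed from IFNγ by 1.42 ± 0.28.

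At ISG15, chr1:1001169-1001669 lies beside HES4 in an intron of long ISG15 transcripts, 0.274 kb from their start. It changed by 1.58 ± 0.33 with IFNα and 1.12 ± 0.33 with IFNγ. The IFNα call was lost without unstimulated replicate 2 (adjusted p = 0.0651 in limma), and the IFNγ call was lost in 7 of 16 alternatives (adjusted p of up to 0.432), among them without unstimulated replicate 2 or 4 or IFNγ replicate 2, 3 or 4. At IFI44L, chr1:78619744-78620244, over a further annotated start 0.454 kb upstream, changed by 1.63 ± 0.25 and 1.21 ± 0.25. Its mean level was 4.44 unstimulated, 14.0 with IFNα and 10.2 with IFNγ. It was thus more open than the IFI44L start-site peak, which had 0.595, 4.62 and 2.80. No peak named for IFI27 or IFI44 other than the start-site peaks was called with an interferon.

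The naming of the rows limits what the counts by gene can say. The centre of 51 of the 133 peaks lay inside the GENCODE record of the gene it is named for. For 32 peaks the nearest start of a protein-coding gene belonged to none of the 10 genes: 18 were nearest to PTGFR (named IFI44L), 9 to HES4 (named ISG15), 4 to CCDC194 (named BST2) and 1 to TMPRSS2 (named MX1). IFNα raised 7 of these 32 and 26 of the 93 nearest to their own gene, where it raised 0.513% of all tested peaks. The long ISG15 transcripts begin beside HES4.

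Of the 28 other peaks raised by IFNα, 4 (14.3%) held an ISRE match, against 23.3% of all peaks that IFNα raised and 9.13% of all tested. Of the 14 peaks where IFNα exceeded IFNγ, 2 held an ISRE match and 7 held an AP-1 match. Over all tested peaks where IFNα exceeded IFNγ, the shares were 3.88% and 54.1%.

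The other cytokines called 16 rises and 2 falls among the 133 peaks, none at the 10 start-site peaks. TNF raised 8, against 2.67% of all tested peaks. IL-1β raised 2, against 1.72%, and lowered 1, against 1.79%. OSM raised 2, against 1.55%, and lowered 1, against 1.29%. TGF-β1 raised 3, against 1.98%, and IL-13 raised 1, against 0.730%. IL-6, IL-17A and IL-22 raised none in limma, against 0.0427%, 0.0329% and 0.0344%, and 7, 4 and 7 peaks were higher at an unadjusted p under 0.05. The 8 rises with TNF were 6.02% of the member peaks, and 4 of them kept their call in every alternative. Their number fell to 4 without unstimulated replicate 1 or TNF replicate 3, and to 5 without unstimulated replicate 2 or TNF replicate 1. With all 10 cytokines counted, 86 of the 133 peaks were called for none. The share of all tested peaks called for none was not computed, so this count cannot be set against it.

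A peak 17.7 kb upstream of IFI6, chr1:27689639-27690139, in an intron of ENSG00000225886, was higher with IFNγ than with IFNα, the reverse of the downstream peaks. Its level was 5.66, 7.44, 5.72 and 7.42 unstimulated, 27.8, 29.0, 30.4 and 30.0 with IFNγ, and 10.7, 13.0, 8.07 and 11.6 with IFNα. It was 20.7, 17.1, 16.6 and 13.1 with OSM, and 17.7, 13.5, 16.3 and 17.2 with IL-13. The IFNγ libraries stood above those of every other condition, and OSM and IL-13 stood above unstimulated. The log2 change was 2.09 ± 0.19 with IFNγ, 1.29 ± 0.19 with OSM and 1.25 ± 0.19 with IL-13, and these 3 calls held in all 16 alternatives of each. The change of 0.68 ± 0.19 with IFNα just missed the threshold (adjusted p = 0.0508 in limma), and the log2 difference of IFNα from IFNγ was -1.41 ± 0.19 (adjusted p = 8.59e-09). With IL-1β the level fell by 0.64 ± 0.19 on the log2 scale, a call lost in 7 of 16 alternatives (adjusted p of up to 0.212), among them without unstimulated replicate 2 or 4 or IL-1β replicate 2, 3 or 4. In IL-6 replicate 4, the shallow library, it was 22.8, where the other IL-6 libraries had 6.26 to 10.2. It holds 1 ISRE match at its edge and 2 AP-1 matches, and the stretch with the ISRE core in capitals reads as follows.

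IFI6 upstream peak, chr1:27689639-27689711, plus strand: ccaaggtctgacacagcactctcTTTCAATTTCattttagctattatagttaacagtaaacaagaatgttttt

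A peak 42.8 kb downstream of the IFI44 start, chr1:78692354-78692854, opened with IL-1β, TNF and TGF-β1 and not detectably with interferons. Its level was 3.04, 0.566, 1.55 and 0.833 unstimulated, 9.92, 9.58, 9.24 and 6.32 with IL-1β, 6.85, 7.40, 5.59 and 6.05 with TNF, and 4.69, 4.03, 3.20 and 5.33 with TGF-β1. All 12 libraries with these cytokines were above all 4 unstimulated ones. The log2 change was 2.35 ± 0.31 with IL-1β, 1.95 ± 0.31 with TNF and 1.40 ± 0.31 with TGF-β1, and the calls held in every alternative run. With IFNα and IFNγ the log2 changes were 0.36, with a 95% interval from -0.26 to 0.97, and 0.35, from -0.27 to 0.96.

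Of the other rises with TNF, 4 were downstream of IFI6, with chr1:27658797-27659297 (13.1 kb from the start) going from 1.79 to 3.74 unstimulated to 7.49 to 10.9 and changing by 1.55 ± 0.25. This peak also changed by 0.87 ± 0.25 with IL-1β and by 0.93 ± 0.25 with IFNα, and these calls were lost in 5 and 7 of 16 alternatives (adjusted p of up to 0.236 and 0.30 in limma). The libraries whose removal ended them were unstimulated replicates 2 and 3 in each case, with IL-1β replicates 1, 3 and 4 or IFNα replicates 1, 2 and 3. The peak chr1:78473091-78473591, which the table names IFI44L but which lies in an intron of PTGFR, changed by 1.40 ± 0.31 with TNF. OSM raised chr21:41467255-41467755, where long MX1 transcripts overlap an intron of TMPRSS2, by 0.77 ± 0.16 on the log2 scale. OSM lowered chr1:1005702-1006202 in an intron of the long ISG15 transcripts, which fell by 1.45 ± 0.39. Scaling touches the OSM and TGF-β1 values: over all tested peaks the median log2 change was -0.22 with OSM and 0.15 with TGF-β1, and 0.01 and -0.01 with loess offsets, under which the OSM fall at ISG15 was no longer called. That call was also lost without unstimulated replicate 4 or OSM replicate 1 or 3 (adjusted p of up to 0.137 in limma). TGF-β1 also raised an MX1 intron peak, chr21:41442402-41442902, and a BST2 intron peak, chr19:17404021-17404521, whose unstimulated libraries were all at or below 3 reads, which makes them at least 1.92-fold and 2.26-fold higher. Their centres lay 0.483 and 0.266 kb from another annotated start of MX1 and of BST2. With IFNα the same MX1 intron peak was at least 2.44-fold higher, and each of its calls was lost in 11 of 16 alternatives, among them without unstimulated replicate 2, 3 or 4 and without most of the treated libraries in turn (adjusted p of up to 0.311 with IFNα and 0.182 with TGF-β1 in limma). The TGF-β1 call of the BST2 intron peak was lost in 9 of 16, among them without unstimulated replicate 1, 2 or 3 or TGF-β1 replicate 2, 3 or 4 (adjusted p of up to 0.202).

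**Figure D5:**
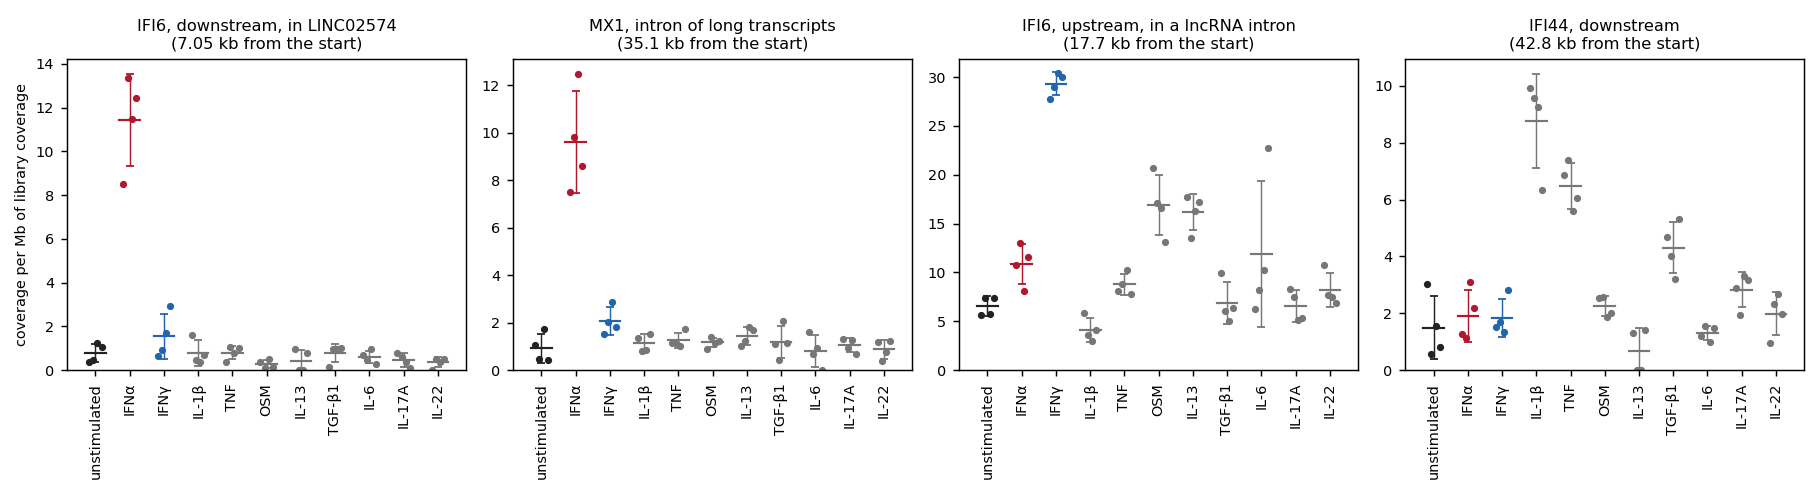
Accessibility of 4 peaks away from the start sites (y axis, coverage per Mb of library coverage, starting at 0) in each of the 11 conditions (x axis), with 1 point per library, the mean as a line and 1 SD as a bar. From left to right, the IFI6 downstream and MX1 downstream peaks stand out with IFNα, the IFI6 upstream peak with IFNγ, OSM and IL-13, and the IFI44 downstream peak with IL-1β, TNF and TGF-β1.

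Start sites of the wider pathway were tested in the same fit, ordered from receptors to effectors, and their counts stand beside 0.910% of promoter-class peaks raised with IFNα and 1.71% with IFNγ. Among the 7 genes for receptor chains and kinases, IFNα raised none in limma, and 0 were higher at an unadjusted p under 0.05. The log2 change with IFNα was -0.04 for IFNAR1 and 0.28 for JAK1. IFNγ raised 1, JAK1, by 0.62 ± 0.17. A call in this list was not particular to IFNγ: TNF, OSM, IL-6, IL-13, IL-17A and IL-22 also raised 1 of the 7 each. All these comparisons share the same 4 unstimulated libraries, and their part in these calls was not tested. Among transcription factor genes, IRF9, a subunit of the ISRE-binding complex, changed by 0.89 ± 0.14 with IFNα and 0.68 ± 0.14 with IFNγ. IRF1 changed by 0.58 ± 0.11 with IFNγ and was not called with IFNα (0.28 ± 0.11). The difference between the interferons was not called for either gene.

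Of the 5 genes for ISG15 conjugation and removal, IFNα raised 2 and IFNγ raised 3. One of the IFNα calls, USP18, which removes ISG15 and dampens the receptor, changed by 0.74 ± 0.21 and lost its call under every other scaling. HERC5, the ligase that attaches ISG15, changed by 1.36 ± 0.16 with IFNα and 0.71 ± 0.16 with IFNγ, and this was the 1 pathway start site where the interferons differed (log2 difference 0.66 ± 0.16, adjusted p = 0.00658 in limma). UBA7, the activating enzyme for ISG15, changed by 0.92 ± 0.18 with IFNγ and was not called with IFNα (0.44 ± 0.18). Of 5 genes of RNA sensing each interferon raised 2: RIGI (0.69 ± 0.16) and DHX58 (0.59 ± 0.14) with IFNα, and IFIH1 (1.29 ± 0.21) and TLR3 (1.18 ± 0.28) with IFNγ. No difference between the interferons was called among these 5 genes. At an unadjusted p under 0.05, 3 of the 5 were higher with IFNα and 3 with IFNγ, so the calls do not divide the sensors between the interferons. Of 3 feedback genes, USP18 among them, IFNα raised 2 and IFNγ raised 1, and SOCS1, an inhibitor of the kinases, changed by 0.63 ± 0.14 and 0.77 ± 0.14.

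Among 26 other antiviral effectors, IFNα raised 15 and IFNγ raised 17, with none lowered by either in limma and 0 lower at an unadjusted p under 0.05. Of promoter-class peaks, 0.910% and 1.71% were raised. With library totals or loess offsets the counts were 13 and 14. OAS2, an enzyme that senses double-stranded RNA, had a start-site level of 2.45 unstimulated, 36.3 with IFNα and 31.2 with IFNγ, and changed by 3.65 ± 0.25 and 3.43 ± 0.25 on the log2 scale. OAS1 changed by 2.56 ± 0.32 and 1.55 ± 0.32. PARP9 and DTX3L share 1 peak, so that these counts hold 1 pair from a single peak. TGF-β1 lowered 8 of the 26 (IFITM1 fell by 0.70 ± 0.20), where it lowered 3.72% of promoter-class peaks and 1.52% of all tested peaks. With loess offsets 2 of the 26 were lowered, and with library totals 11. TGF-β1 also lowered 3 of the 5 genes for ISG15 conjugation and removal under each scaling, and UBA7 fell by 0.75 ± 0.18 and HERC5 by 0.71 ± 0.16 on the log2 scale. The start-site peaks of the 10 genes were not called with TGF-β1, with a median log2 change of -0.22 (-0.13 with loess offsets), and 3 of them were lower at an unadjusted p under 0.05.

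The promoter-class peaks whose profile over the 44 libraries was most like the mean of the 10 start-site peaks were those named OAS2 (Pearson's r = 0.951), OASL (0.910), DDX60 (0.875), IFIT3 (0.862), HERC5 (0.859), OAS1 (0.859), ETV7 (0.855) and LOC100506321 (0.853). These values describe the same libraries, which share depth and composition with each profile. Of the 10 start-site peaks, ISG15 followed their mean with r = 0.951 and IFI6 with r = 0.614, the extremes of the set. Each of the 10 is itself part of that mean, which raises its r, so these values cannot be set against those of peaks outside it.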

How the data were processed

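Omni-ATAC libraries of Ccd18-Co cells were processed by the authors with the ENCODE ATAC-seq pipeline on hg38, and the submitters' processing notes name MACS2. The paper describes its bulk peaks as variable in length and its single-cell peaks as fixed at 500 bases. All peaks here span 500 bases, so they may not have been called in these libraries. Their source was not established. The deposited signal is summed read coverage per peak, taken over whole reads rather than transposase insertion points. A value of 75 was the most frequent low value, the length of 1 read. Each of the 44 columns was matched to its sample by library number.

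Coverage was divided by the library total in Mb and by a composition factor (a mean of log ratios to the geometric mean library over the 148332 peaks covered in every library, trimmed by 30% on the ratio and 5% on the mean at each end), and 0.5 was added before log2. Peaks with a log2 mean above -3 were tested. limma 3.58.1 (R 4.3.3) was fitted to all 44 libraries with group as the only term and a trended prior, for 10 cytokines against unstimulated and for IFNα against IFNγ, with Benjamini-Hochberg adjustment and a threshold of 0.05. The script was tested on simulated data. Fold changes are on the log2(value + 0.5) scale, which understates those of low peaks. Alternatives were other scalings, pseudocounts of 0.1 and 2, no filter, the replicate number as a block, the compared groups alone, and each library left out in turn.

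GENCODE 44 gave starts and gene parts, and a peak's place is that of its centre. Peak coordinates are those of the table. Named peaks were the start-site peaks, for each interferon and gene the called peak with the largest change, for the other cytokines up to 3 such peaks, 8 like promoter-class peaks and up to 3 genes per pathway list. Further peaks were named after their values were seen. The members and lists were chosen with earlier results of these data known. Some results for single genes, and the counts of 1 pathway list, are not reported here.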

Additional observations from a re-analysis of the deposited data

Results flagged for a closer look

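In 4 of the 110 sets of 4 libraries (10 start-site peaks in 11 groups), 1 library stood apart from the other 3 by Dixon's criterion (the gap to its nearest neighbor as a share of the range), a rate near the 1 in 20 that chance gives. The MX2 start-site peak was at 8.956 in OSM replicate 4, where the other 3 had 12.4 to 12.6. The BST2 start-site peak was at 3.376 in IL-6 replicate 1, where the others had 1.65 to 1.67. The ISG15 start-site peak was at 29.37 in IFNγ replicate 3, where the others had 33.3 to 34.0, all above the unstimulated libraries. The CMPK2 start-site peak was at 5.084 in IL-6 replicate 2, where the others had 2.89 to 3.09.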

How the results depend on the processing

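No member result reversed under any alternative run. Of the 38 peaks raised by IFNα, 24 kept their call in every alternative, with 9 of the 10 start-site peaks among them. With IFNγ 9 of 15 did (7 of 8 start-site peaks), and between the interferons 12 of 15. Depth limits the low peaks most, since 3 reads are worth between 0.274 and 1.52.

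Replicate numbers showed no clear pairing of the samples. Libraries with the same number had a mean correlation of deviations of 0.0034 (highest 0.0404), and those with different numbers -0.0011 (highest 0.0706). For 16 of the 44 libraries the best match in another group had the same number. The correlations were taken over tested peaks of all levels, low ones included, so they cannot exclude pairing. With the replicate number as a block, 40 member peaks were raised by IFNα, 15 by IFNγ and 1 by IL-17A, where the fit without it gave 38, 15 and 0.

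Among other settings, member peaks lowered by IFNγ came to 1 with library totals and at a pseudocount of 0.1. Those lowered by IL-1β came to 0 at a pseudocount of 2 and in a fit of the compared groups alone. For OSM that fit gave 5 raised and 2 lowered members, 2 raised start sites and 26486 called peaks in all, and loess offsets gave 0 lowered. Called peaks came to 62 for IL-6 and 411 for IL-22 in the compared groups alone, and to 102 for IL-17A and 89 for IL-22 at a pseudocount of 0.1, where 1 member was lowered by IL-13. IL-17A raised 1 member with median-of-ratios scaling and with loess offsets. TGF-β1 raised 1 member with loess offsets, at a pseudocount of 0.1 and in the compared groups alone, and lowered 1 in that fit and with library totals. Between the interferons, 23 members were higher with IFNα at a pseudocount of 2, 2826 peaks were called in all at 0.1, and the start sites called were 2 with loess offsets and in the compared groups alone and 3 at a pseudocount of 2. The cause of these shifts was not tested.

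With each library left out in turn, all called peaks ranged from 2225 to 2830 for IFNα (3448 with all libraries), 3048 to 3883 between the interferons (4783), 6956 to 9262 for OSM (11587), 4087 to 6167 for IL-13 (6553), 22 to 1013 for IL-6 (436), 58 to 240 for IL-17A (162) and 53 to 109 for IL-22 (149). The lowest IL-6 count was without replicate 4 and the highest without replicate 1. Members raised ranged from 4 to 7 for TNF (8), 1 to 2 for IL-1β, 1 to 3 for TGF-β1, and 0 to 1 for IL-6 and IL-17A. Members lowered ranged from 0 to 1 for IFNγ, IL-1β and TGF-β1 and 0 to 2 for OSM and IL-13, and start sites called between the interferons ranged from 1 to 2. Of 688 values for single named peaks in these fits, 571 kept their call and 117 lost it, and of 688 in the other settings 646 kept it and 42 lost it.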
